A study of Homo sapiens with 27 samples.

Results

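U2OS osteosarcoma cells carrying the MMP2sh1 hairpin were compared with U2OS cells carrying the MMP2sh2 hairpin at the overconfluent stage (day +2, where day 0 is confluence). Both lines were stably transduced with a lentiviral pLKO.1 vector that codes for a short hairpin RNA against MMP2, and both were selected with puromycin, so the vector, the selection and the hairpin pathway were shared and the hairpin sequence differed. The test held 3 MMP2sh1 and 3 MMP2sh2 libraries, 6 of the 27 RNA-seq libraries in the series. The remaining libraries were controls at each stage, labelled U2OS WT and called pLKO.1 vector controls by the study, and both knockdown lines at the subconfluent (day −2) and confluent (day 0) stages. Of 55882 genes counted, 19427 passed a filter on low counts in the 6 libraries and were tested. The 36455 genes under the filter included 14525 with no read in any library of the series.

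MMP-2 is a secreted gelatinase of the matrix metalloproteinase family, made as an inactive proenzyme that membrane-bound MMP14 and the inhibitor TIMP2 bring together for activation at the cell surface, where it cuts denatured collagen, type IV collagen and other matrix proteins. A nuclear pool of MMP-2 can also cut the N-terminal tail of histone H3, and the lysosomal cysteine protease cathepsin B (CTSB) is another enzyme with that activity, whose transcript the study followed after MMP2 depletion. U2OS is an adherent human osteosarcoma line. A short hairpin RNA is processed into a small RNA that guides degradation of matching transcripts. Each line carried a single hairpin, so the hairpin, the line and the extent of MMP2 depletion cannot be told apart in a comparison of these lines, and MMP-2 protein already in the medium and matrix is not seen by RNA-seq.

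Total counts on genes ranged from 37907001 to 40714835 in the MMP2sh1 libraries and from 39429387 to 40844889 in the MMP2sh2 libraries. Replicates of a line correlated at 0.985 to 0.986 in log2 CPM (counts scaled to a common library size, with factors from the trimmed mean of M-values), libraries of different lines at 0.982 to 0.983, and replicates differed by more than sampling noise (chi-square per degree of freedom 5.11 to 11.996). The study describes the replicates as independent biological replicates of a line, so p-values measure the spread between such replicates and not between lines made anew. Mitochondrially encoded transcripts took 6.53% to 7.15% of counts in MMP2sh1 and 6.10% to 6.41% in MMP2sh2. Mesenchymal and osteosarcoma transcripts were abundant in the overconfluent libraries of all 3 lines, with VIM at 688 to 813 CPM, COL1A1 at 1017 to 1406 CPM, SPARC at 1509 to 2088 CPM and RUNX2 at 51.0 to 63.8 CPM. The mature osteoblast genes IBSP (0 in every library), SP7 (at most 0.144 CPM) and BGLAP (at most 0.574 CPM) and the second type I collagen chain COL1A2 (at most 0.437 CPM) were at or near 0. Blood markers were scarce, with a sum of at most 5.69 CPM in these 6 libraries. HBB was at 0, and CD3E, CD14 and PTPRC were at no more than 0.0242, 0.77 and 0.932 CPM. The 9 endothelial markers summed to 92.5 to 112 CPM in these 6 libraries, with VWF at no more than 3.20 CPM and CDH5 at no more than 0.608 CPM.

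The targeted transcript was lower in MMP2sh1 than in MMP2sh2. MMP2 (GRCh37, chr16:55423612-55540603, plus strand, protein coding) measured 97.9, 94.1 and 101 CPM in MMP2sh1 and 278, 291 and 269 CPM in MMP2sh2, against 504, 483 and 494 CPM in the pLKO.1 control, so that no line overlapped another. The difference between the knockdown lines was called (log2 fold change −1.52 ± 0.06, adjusted p = 1.26e-14). The value after ± is the standard error, a negative value is lower in MMP2sh1, and each adjusted p is from the edgeR quasi-likelihood test, with the Benjamini-Hochberg method over all 19427 genes. MMP2sh1 held 19.8% and MMP2sh2 56.6% of the control mean. The MMP2sh1 minus MMP2sh2 difference was −1.84 ± 0.09 at day −2 and −1.41 ± 0.05 at day 0, and neither change to day +2 passed the test of line by day (adjusted p = 0.193 and 0.672). In bulk RNA, fewer cells that transcribe a gene and less RNA of it per cell cannot be told apart.

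CTSB, the cathepsin B gene, measured 1699, 1577 and 1645 CPM in MMP2sh1 and 1764, 1793 and 1785 CPM in MMP2sh2 at day +2 and 1842, 1905 and 1905 CPM in the control. The highest MMP2sh1 library lay below the lowest MMP2sh2 library, but the difference missed the threshold (log2 fold change −0.12 ± 0.04, adjusted p = 0.0645). It passed with DESeq2 (adjusted p = 0.0372), with the replicate number as a block (0.0317) and without MMP2sh1 replicate 1 (0.0201), and had an adjusted p of up to 0.275 without 1 of the other libraries. At the earlier stages CTSB was lower in MMP2sh1, with log2 fold changes of −0.43 ± 0.07 at day −2 and −0.48 ± 0.03 at day 0 (adjusted p = 6.6e-05 and 3.21e-13). Its difference at day +2 was smaller than at day 0 in the test of line by day (change 0.36 ± 0.05, adjusted p = 0.000113).

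At day +2, 1527 of 19427 tested genes (7.86%) differed between the lines at an adjusted p under 0.05, of which 636 (3.27% of those tested) were lower and 891 (4.59%) higher in MMP2sh1. Most differences were small. The called genes had a median size of 0.377 on the log2 scale, 176 of them passed a change of 2-fold (46 lower and 130 higher), and the median over all genes tested was −0.0005. The libraries of the lines did not overlap for 1495 of the 1527 called genes (97.9%) and for 4721 of all genes tested (24.3%). The number called fell to 968 without MMP2sh1 replicate 2, to 885 without MMP2sh2 replicate 1 and to 984 without MMP2sh2 replicate 2.

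**Figure D1:**
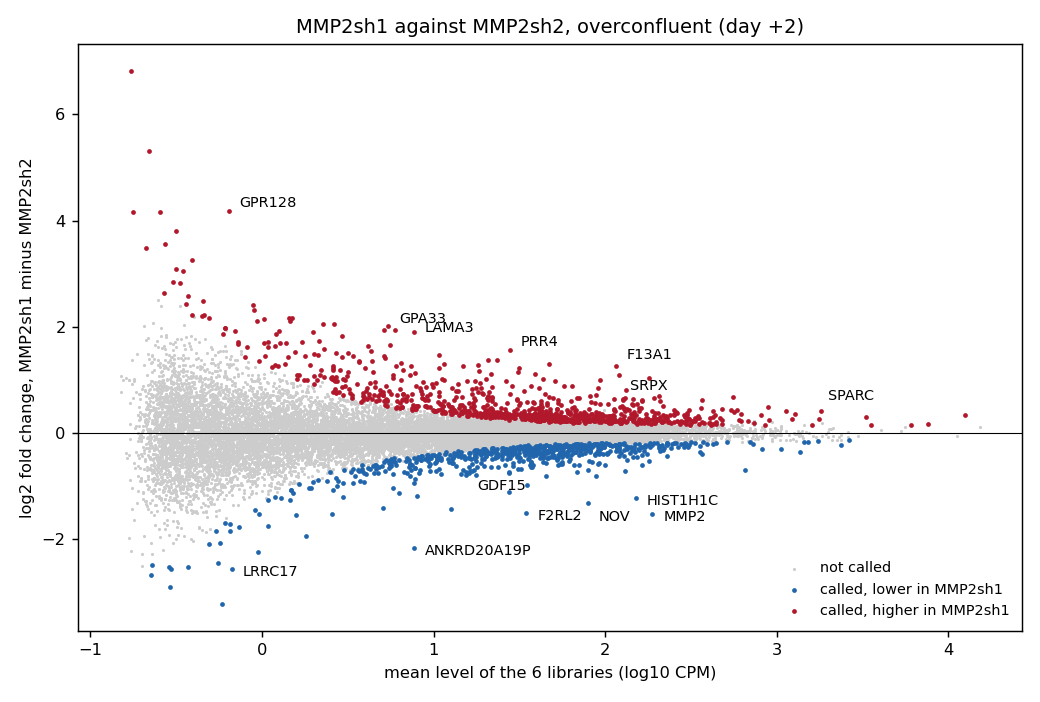
Mean level over the 6 overconfluent libraries (x axis, CPM on a log10 scale) and MMP2sh1 minus MMP2sh2 log2 fold change (y axis) for each of 19427 genes tested, with called genes in colour and named genes labelled. Most of the 1527 called genes lie within 2-fold, and 34 of the 176 past 2-fold have a mean under 1 CPM in both lines.

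Among the genes lower in MMP2sh1, secreted proteins and surface receptors stood beside histone transcripts. HIST1H1C, which codes for the linker histone H1.2, had the smallest adjusted p of any gene after MMP2, at 98.5, 85.7 and 87.9 CPM in MMP2sh1 and 212, 211 and 211 CPM in MMP2sh2 (log2 fold change −1.23 ± 0.06, adjusted p = 2.8e-12), and the control at 179.9, 199.9 and 198 CPM. NOV, the matricellular protein CCN3, measured 40.4, 48.5 and 48.6 CPM in MMP2sh1 and 107, 119 and 115 CPM in MMP2sh2 (log2 fold change −1.31 ± 0.07, adjusted p = 1.21e-11), and its control libraries lay above both, at 186, 182 and 173 CPM. F2RL2, the protease-activated receptor 3 that binds thrombin, measured 16.5, 19.5 and 18.4 CPM in MMP2sh1 and 54.2, 47.6 and 52.2 CPM in MMP2sh2 (log2 fold change −1.50 ± 0.08, adjusted p = 1.21e-11). F2RL2 in MMP2sh2 was at the level of the control (51.5, 50.1 and 44.5 CPM), and it lies within an intron of IQGAP2, so that reads of the 2 genes can overlap in a count without strand.

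The largest falls, apart from MMP2 and F2RL2, were mostly of genes with few reads. LRRC17, a secreted leucine-rich repeat protein, measured 0.156, 0.180 and 0.242 CPM in MMP2sh1 and 0.678, 1.27 and 1.48 CPM in MMP2sh2 (log2 fold change −2.55 ± 0.51, adjusted p = 0.0018). CLEC7A, the beta-glucan receptor dectin-1, measured 0.261, 0.591 and 0.145 CPM in MMP2sh1 and 1.43, 1.65 and 1.60 CPM in MMP2sh2 (log2 fold change −2.23 ± 0.45, adjusted p = 0.00204). TENM1, a teneurin of the neuronal cell surface, measured 1.09, 1.26 and 1.60 CPM in MMP2sh1 and 3.99, 3.27 and 4.06 CPM in MMP2sh2 (log2 fold change −1.52 ± 0.24, adjusted p = 0.000108). CFB, complement factor B, measured 0.912, 0.848 and 0.677 CPM in MMP2sh1 and 2.13, 2.09 and 2.87 CPM in MMP2sh2 (log2 fold change −1.54 ± 0.30, adjusted p = 0.00132). In all 4 genes every MMP2sh1 library lay below every MMP2sh2 library, and CFB overlaps C2 on the genome. MS4A15, a tetraspanning membrane protein, had the largest fitted fall and rested on few reads (12, 1 and 0 counts in MMP2sh1 and 56, 59 and 17 in MMP2sh2), which gave a ratio of summed counts of 9.788 (95% exact interval 5.531 to 18.87, counting error only). Its call ended without MMP2sh1 replicate 2 (adjusted p = 0.0513), without MMP2sh2 replicate 1 (0.0563) and without MMP2sh2 replicate 2 (0.0516). The pseudogene ANKRD20A19P also fell (−2.16 ± 0.17, adjusted p = 8.65e-09), but it has near-identical copies and its count is uncertain. The list of the 12 largest falls was completed by 4 genes whose calls ended without at least 1 library, namely HIST1H3E, SLC47A1, COX6B2 and CYP4F35P, with an adjusted p of up to 0.0883 (3 libraries), 0.106 (4 libraries), 0.129 (MMP2sh2 replicate 1) and 0.214 (5 libraries).

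Among the genes higher in MMP2sh1 were several coding for enzymes and secreted proteins. F13A1, the transglutaminase subunit of coagulation factor XIII, measured 163, 155 and 172 CPM in MMP2sh1 and 67.9, 61.5 and 73.4 CPM in MMP2sh2 (log2 fold change 1.27 ± 0.07, adjusted p = 6.29e-12) and 56.4, 51.9 and 41.1 CPM in the control. SRPX, a secreted sushi-repeat protein, measured 159.6, 165 and 170.0 CPM in MMP2sh1 and 78.2, 77.6 and 75.2 CPM in MMP2sh2 (log2 fold change 1.09 ± 0.06, adjusted p = 8.32e-12). KLK6, a secreted serine protease of the kallikrein family, measured 125, 120.2 and 129 CPM in MMP2sh1 and 63.2, 62.9 and 60.03 CPM in MMP2sh2 (log2 fold change 1.00 ± 0.06, adjusted p = 5.89e-11). PRR4, a proline-rich secreted protein whose gene overlaps PRH1, measured 45.0, 38.0 and 42.1 CPM in MMP2sh1 and 14.3, 14.9 and 12.8 CPM in MMP2sh2 (log2 fold change 1.57 ± 0.09, adjusted p = 2.13e-11). For all 4 genes the lowest MMP2sh1 library lay above every MMP2sh2 and control library.

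The largest rises were again mostly of genes near 1 CPM. GPR128, an adhesion G protein-coupled receptor, had 44, 56 and 44 counts in MMP2sh1 and 2, 2 and 4 in MMP2sh2, a ratio of summed counts of 18.67 (95% exact interval 9.226 to 44.08, counting error only, adjusted p from edgeR = 2.81e-05). GPA33, a cell surface glycoprotein of intestinal epithelium, measured 9.23, 8.12 and 8.85 CPM in MMP2sh1 and 2.25, 1.79 and 2.44 CPM in MMP2sh2 (log2 fold change 2.01 ± 0.17, adjusted p = 1.37e-08). ATP6V0A4, a subunit of the vacuolar proton pump, measured 8.76, 7.58 and 8.05 CPM in MMP2sh1 and 1.77, 2.05 and 2.51 CPM in MMP2sh2 (log2 fold change 1.94 ± 0.17, adjusted p = 3.58e-08). APLNR, the apelin receptor, measured 11.8, 8.48 and 7.98 CPM in MMP2sh1 and 2.15, 2.12 and 3.06 CPM in MMP2sh2 (log2 fold change 1.94 ± 0.18, adjusted p = 9e-08). All MMP2sh1 libraries lay above all MMP2sh2 libraries in these 4 genes. The class II antigen-presenting chain HLA-DPA1 (2.05 ± 0.25, adjusted p = 4.3e-06), the Fc receptor-like FCRL4 (2.05 ± 0.28, adjusted p = 2.76e-05), TMEM179 (2.16 ± 0.33, adjusted p = 7.45e-05), R3HDML (2.11 ± 0.34, adjusted p = 0.000155), haptoglobin HP (2.16 ± 0.43, adjusted p = 0.00196) and myoglobin MB (2.41 ± 0.46, adjusted p = 0.00129) rose too, and HLA-DPA1 overlaps HLA-DPB1. KRT79 and FAM230A, the other members of the 12 largest rises, lost their calls without MMP2sh1 replicate 1 (adjusted p = 0.0512) and MMP2sh1 replicate 2 (0.0659), respectively, and FAM230A has close paralogs. Epithelial marker transcripts summed to 464.8 to 479.3 CPM in MMP2sh1, 440.6 to 445.3 CPM in MMP2sh2 and 410.7 to 432.1 CPM in the control. Of 9 tested, 5 were below 0 and 4 above (median −0.03, lowest −1.03). Only 1 was called, the claudin CLDN4 (0.88 ± 0.08, adjusted p = 2.7e-08), and CDH1 was at no more than 0.495 CPM. The part of that sum in the rise of GPA33 was not tested.

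**Figure D2:**
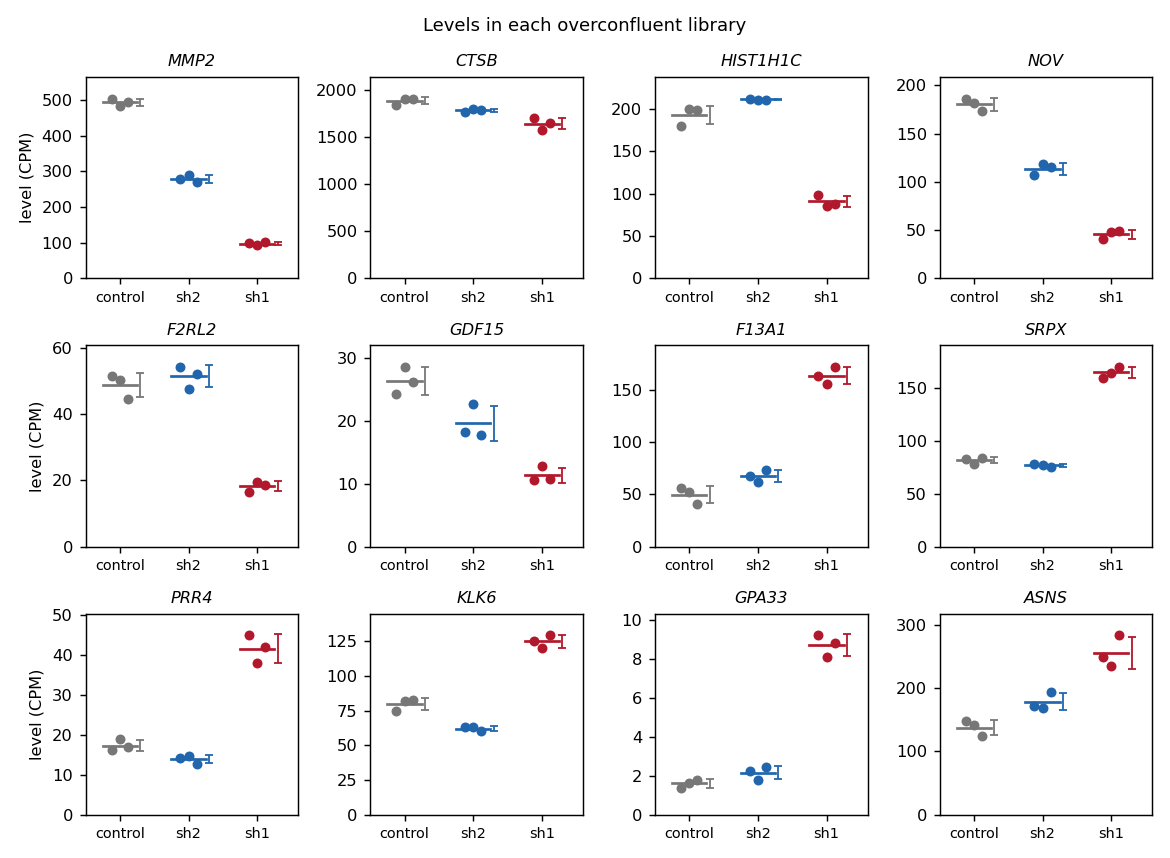
CPM of 12 genes in each overconfluent library (points) of pLKO.1 control, MMP2sh2 and MMP2sh1, with the line mean (horizontal line) and SD (bar, n = 3). MMP2, NOV, GDF15 and, by a small margin not called between the knockdown lines, CTSB stepped down from control through MMP2sh2 to MMP2sh1. HIST1H1C, F2RL2, SRPX and PRR4 stood apart in MMP2sh1 from both other lines.

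Polyadenylated histone genes were more often lower than higher in MMP2sh1. These are the histone genes whose transcripts can be captured by oligo-dT, either the replication-independent variants or cluster genes that make a polyadenylated form alongside the usual stem-loop form. Of 17 tested, 11 were lower, 0 were higher and 16 had a log2 fold change below 0 (median −0.33, against −0.0005 over all genes tested, with 3.27% of all genes called lower). The number called was 7 to 10 with a library left out, and 7 without MMP2sh1 replicate 2 or MMP2sh2 replicate 2. HIST1H2AC measured 33.8, 32.8 and 33.1 CPM in MMP2sh1 and 53.6, 60.7 and 58.6 CPM in MMP2sh2 (log2 fold change −0.80 ± 0.07, adjusted p = 2.7e-08). HIST1H2BK measured 133, 131 and 128 CPM in MMP2sh1 and 196, 194 and 201 CPM in MMP2sh2 (log2 fold change −0.60 ± 0.05, adjusted p = 4.33e-08). HIST2H2BE measured 39.9, 41.8 and 45.5 CPM in MMP2sh1 and 60.9, 64.8 and 65.6 CPM in MMP2sh2 (log2 fold change −0.60 ± 0.07, adjusted p = 1.85e-06). Core histones H2A and H2B pair as dimers on the outer faces of the nucleosome, and the MMP2sh1 libraries were the lower in each case with no overlap. At day 0, 11 of the genes were lower and 1 higher (18.5% of all genes called in either direction at that day). At day −2, 5 were lower and 1 higher (10.7% of all genes called). By the test of line by day, 6 of 17 had a difference that was more negative at day +2 than at day −2 (0.478% of all genes tested for it).

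The promoters of the histone genes with the smallest adjusted p are shown because these genes moved together. The 250 bases before the start are from RefSeq (GRCh38.p14) and are written 5′ to 3′ on the gene's strand, with capitals marking a CCAAT box in HIST1H1C and the octamer in the others (ATTTGCAT, or ATGCAAAT on the other strand).

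HIST1H1C (chr6:26056471-26056720, minus strand): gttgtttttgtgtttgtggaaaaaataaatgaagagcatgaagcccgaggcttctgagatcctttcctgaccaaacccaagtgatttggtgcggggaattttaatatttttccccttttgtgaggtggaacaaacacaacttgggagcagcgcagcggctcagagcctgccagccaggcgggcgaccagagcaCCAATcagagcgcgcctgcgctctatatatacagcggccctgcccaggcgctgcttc

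HIST1H2AC (chr6:26123922-26124171, plus strand): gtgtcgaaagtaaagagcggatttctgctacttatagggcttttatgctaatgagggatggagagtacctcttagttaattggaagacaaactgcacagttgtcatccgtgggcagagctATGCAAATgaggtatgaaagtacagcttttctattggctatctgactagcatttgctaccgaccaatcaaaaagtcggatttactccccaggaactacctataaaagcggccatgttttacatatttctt

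HIST1H2BK (chr6:27146859-27147108, minus strand): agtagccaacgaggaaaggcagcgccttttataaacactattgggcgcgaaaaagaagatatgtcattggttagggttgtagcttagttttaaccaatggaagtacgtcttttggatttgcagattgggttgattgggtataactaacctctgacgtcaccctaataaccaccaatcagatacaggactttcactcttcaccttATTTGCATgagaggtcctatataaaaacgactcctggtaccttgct

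HIST2H2BE (chr1:149886683-149886932, minus strand): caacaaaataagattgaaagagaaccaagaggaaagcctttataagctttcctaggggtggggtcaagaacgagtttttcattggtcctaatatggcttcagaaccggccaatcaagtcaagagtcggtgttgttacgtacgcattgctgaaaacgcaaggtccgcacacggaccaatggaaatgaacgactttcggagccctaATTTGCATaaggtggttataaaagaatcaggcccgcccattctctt

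The first marked base lies 57 bases before the start in HIST1H1C, 130 in HIST1H2AC and 46 in HIST1H2BK and HIST2H2BE. Searched on both strands of the 300 bases around the start, the octamer was in 5 of 15 tested list members with a promoter (33.3%, 4 of 10 called) and in 2.19% of all 27305 promoters, and CCAAT in 12 of 15 (80.0%, 8 of 10 called) and in 39.7% of all. Histone gene promoters are known for both motifs, and a match is a description of the sequence, not of a bound factor. Neither motif contains the other.

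Genes that restrain the cell cycle, and targets of p53, were lower in MMP2sh1 or did not pass the test. Of 30 tested, 9 fell, 0 rose and all 30 had a log2 fold change below 0 (median −0.19, against −0.0005 over all genes tested, with 3.27% of all genes called lower). At day −2, 6 were lower and 1 higher (10.7% of all genes called in either direction). At day 0, 15 were lower and 1 higher (18.5% of all genes), and 0 were called in either test of line by day. TP53INP1, a p53 target in stress and autophagy, measured 27.03, 27.7 and 32.0 CPM in MMP2sh1 and 42.8, 44.3 and 44.7 CPM in MMP2sh2 (log2 fold change −0.61 ± 0.08, adjusted p = 7.31e-06), and its gene overlaps NDUFAF6. GDF15, a secreted stress cytokine, measured 10.6, 12.8 and 10.7 CPM in MMP2sh1 and 18.3, 22.7 and 17.8 CPM in MMP2sh2 (log2 fold change −0.80 ± 0.11, adjusted p = 4.3e-05). The mitochondrial reductase FDXR (−0.55 ± 0.07, adjusted p = 9.2e-06) and the antiproliferative BTG2 (−0.55 ± 0.08, adjusted p = 5.98e-05) fell as well, and so did the cyclin-dependent kinase inhibitors CDKN1B (−0.38 ± 0.06, adjusted p = 0.000177) and CDKN1A (−0.27 ± 0.06, adjusted p = 0.00276), which were chosen after their values were seen. GDF15 was highest in the control (24.3, 28.6 and 26.2 CPM), above both knockdown lines. Genes of growth restraint under FOXO factors, which insulin signalling holds out of the nucleus, had 4 of 22 tested lower (18.2%, against the same 3.27%) and 0 higher, led by CCNG2 (−0.39 ± 0.06, adjusted p = 0.000129). Their number called was 2 without MMP2sh1 replicate 2, 2 without MMP2sh1 replicate 3 and 2 without MMP2sh2 replicate 1. At day −2, 3 of these 22 were lower and 0 higher, and at day 0, 9 were lower and 0 higher. DNA replication genes were called in 11.4% of cases and mitosis genes in 5.13%, against 7.86% of all genes tested. Of 44 DNA replication genes 4 were called lower and 1 higher, but 29 were above 0 and 15 below (median 0.04). The calls were led by the clamp loader subunit RFC5 (−0.63 ± 0.08, adjusted p = 5.02e-06), which overlaps WSB2, a gene also lower in MMP2sh1 (−0.81). The number called in that list was 2 without MMP2sh1 replicate 2, 1 without MMP2sh2 replicate 1 and 2 without MMP2sh2 replicate 2. Of 39 mitosis genes 1 was lower and 1 higher (median −0.02), namely CDC20 and PRC1, and the number called was 1 without MMP2sh1 replicate 1, 0 without MMP2sh1 replicate 2, 0 without MMP2sh2 replicate 1 and 0 without MMP2sh2 replicate 2.

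NRF2 targets, the antioxidant and pentose phosphate genes that oxidative stress induces, had 4 of 24 tested lower and 1 higher in MMP2sh1. Of these 24, 19 were below 0 (median −0.16), and 3.27% of all genes were called lower and 4.59% higher. More members were lower at the earlier stages. At day −2, 10 of 24 were lower and 1 higher (10.7% of all genes called in either direction), and at day 0, 9 were lower and 2 higher (18.5% of all genes). HMOX1, the haem-degrading enzyme, measured 46.9, 42.1 and 40.3 CPM in MMP2sh1 and 59.6, 61.2 and 62.9 CPM in MMP2sh2 (log2 fold change −0.51 ± 0.07, adjusted p = 1.83e-05). Ferritin light chain FTL (−0.30 ± 0.04, adjusted p = 5.08e-05), TALDO1 (−0.40 ± 0.06, adjusted p = 0.000162) and, chosen after its values were seen, TXNRD1 (−0.38 ± 0.07, adjusted p = 0.00069) were lower too. The exception was the cystine importer SLC7A11, which is also an ATF4 target and rose (0.56 ± 0.08, adjusted p = 3.37e-05).

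Genes of the integrated stress response, in which phosphorylated eIF2α favours translation of ATF4 and ATF4 induces amino acid synthesis and import, were more often higher than lower in MMP2sh1. Of 36 tested, 13 rose, 1 fell and 29 were above 0 (median 0.15, with 4.59% of all genes called higher). ASNS, asparagine synthetase, measured 248.6, 235 and 283 CPM in MMP2sh1 and 172, 169 and 194 CPM in MMP2sh2 (log2 fold change 0.51 ± 0.06, adjusted p = 7.29e-06) and 147, 142 and 124 CPM in the control. ALDH1L2, a mitochondrial folate enzyme, measured 22.4, 18.6 and 23.4 CPM in MMP2sh1 and 12.03, 11.6 and 12.6 CPM in MMP2sh2 (log2 fold change 0.83 ± 0.10, adjusted p = 5.36e-06), and its gene overlaps WASHC4. PCK2, a mitochondrial enzyme of phosphoenolpyruvate synthesis, rose (0.46 ± 0.06, adjusted p = 2.25e-05, overlapping NRL). The amino acid transporters SLC7A5 (0.29 ± 0.05, adjusted p = 0.000231) and SLC1A5 (0.30 ± 0.05, adjusted p = 0.000365) and the serine synthesis enzyme PSAT1 (0.34 ± 0.08, adjusted p = 0.00626), chosen after their values were seen, rose too, and PSAT1 lost its call without MMP2sh1 replicate 3 (adjusted p = 0.0541), MMP2sh2 replicate 1 (0.0593) or MMP2sh2 replicate 2 (0.0653). DDIT4, an inhibitor of mTORC1 that ATF4 and other factors induce, fell (−0.47 ± 0.07, adjusted p = 2.99e-05). The number of members called was 14 in all, but 9 without MMP2sh1 replicate 3, 8 without MMP2sh2 replicate 1 and 9 without MMP2sh2 replicate 2. At day −2, 4 of 35 members were lower and 0 higher (10.7% of all genes called in either direction), and at day 0, 5 of 36 were lower and 9 higher (18.5% of all genes). By the test of line by day, 5 of 36 had a more positive difference at day +2 than at day −2 (0.995% of all genes tested for it).

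The ASNS promoter is shown for its match to the CCAAT-enhancer-binding protein and ATF response element, searched as TGATGNAA and marked in capitals, in the 250 bases before the start (RefSeq, GRCh38.p14).

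ASNS (chr7:97872409-97872658, minus strand): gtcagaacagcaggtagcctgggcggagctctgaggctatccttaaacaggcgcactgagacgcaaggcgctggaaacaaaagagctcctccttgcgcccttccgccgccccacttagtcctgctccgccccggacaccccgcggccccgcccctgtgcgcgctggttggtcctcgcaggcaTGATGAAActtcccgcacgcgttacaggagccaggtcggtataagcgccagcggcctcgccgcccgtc

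The match begins 68 bases before the start. The same letters were found on either strand in 10 of 28 tested members with a promoter (35.7%), of which 2 were among the 9 called members with one, and in 4.46% of all 27305 promoters. The list is of a response that ATF4 directs, so a share above that of all promoters was to be found whatever the lines did. A match describes the sequence and not a bound factor.

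Unfolded protein response genes, which code for chaperones and disposal factors of the endoplasmic reticulum, rose in 8 of 24 cases and fell in none. Of these 24, 22 were above 0 (median 0.12), and 4.59% of all genes were called higher. At day −2, 2 of 23 members were higher and 0 lower (10.7% of all genes called in either direction). At day 0, 4 of 23 were higher and 0 lower (18.5% of all genes). XBP1, the transcription factor activated by IRE1, measured 129, 119 and 145 CPM in MMP2sh1 and 96.2, 94.4 and 104 CPM in MMP2sh2 (log2 fold change 0.41 ± 0.07, adjusted p = 0.000182). The chaperone HSPA5, at 671, 682 and 656 CPM in MMP2sh1 and 571, 565 and 563 CPM in MMP2sh2 (log2 fold change 0.23 ± 0.05, adjusted p = 0.00152), and the degradation factor EDEM1 (0.28 ± 0.05, adjusted p = 0.00158) also rose. The changes were small and the number of members called was 4 without MMP2sh1 replicate 2, 5 without MMP2sh1 replicate 3, 4 without MMP2sh2 replicate 1 and 4 without MMP2sh2 replicate 2. Of 13 mitochondrially encoded genes 4 rose and 0 fell, including MT-CO3 (0.18 ± 0.04, adjusted p = 0.00621, overlapping MT-ATP6, and an adjusted p of 0.158 in the fit on all 27 libraries), in libraries whose mitochondrial share was also the higher in MMP2sh1, and the number was 2 without MMP2sh1 replicate 2, 7 without MMP2sh1 replicate 3, 2 without MMP2sh2 replicate 1 and 2 without MMP2sh2 replicate 2.

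Genes that activate or inhibit MMP-2 differed in both directions (4.59% of all genes tested were called higher and 3.27% lower). MMP14, the membrane-bound activator of proMMP-2, measured 311, 291 and 277 CPM in MMP2sh1 and 231, 229.7 and 208 CPM in MMP2sh2 (log2 fold change 0.39 ± 0.06, adjusted p = 8.58e-05). TIMP1, an inhibitor of matrix metalloproteinases, measured 1991, 1780.0 and 1979.5 CPM in MMP2sh1 and 1585, 1628 and 1561 CPM in MMP2sh2 (log2 fold change 0.26 ± 0.04, adjusted p = 0.000365) in a count that overlaps SYN1. The matricellular protein THBS1, which binds MMP-2, rose (0.33 ± 0.05, adjusted p = 0.000162) and overlaps FSIP1. CLDN1, a tight junction protein reported to aid proMMP-2 activation, measured 5.55, 5.19 and 4.01 CPM in MMP2sh1 and 11.4, 10.4 and 11.6 CPM in MMP2sh2 (log2 fold change −1.19 ± 0.14, adjusted p = 2.98e-06) and was the largest fall of the list. The MMP inducer BSG (−0.24 ± 0.05, adjusted p = 0.00251) and the membrane-type MMP24 (−0.45 ± 0.10, adjusted p = 0.00462) fell and THBS2 rose (0.72 ± 0.22, adjusted p = 0.0399), which made 3 lower and 4 higher of 14 tested. These last 3 genes were chosen after their values were seen, and THBS2 lost its call without any library but MMP2sh2 replicate 2 (adjusted p up to 0.157) and in the fit on all 27 libraries. Of 5 other matrix metalloproteinases tested, 1 was called, the second gelatinase MMP9, at 70.6, 67.4 and 64.1 CPM in MMP2sh1 and 32.0, 28.7 and 20.6 CPM in MMP2sh2 (log2 fold change 1.31 ± 0.10, adjusted p = 8.65e-09), so that the gelatinases MMP2 and MMP9 differed in opposite directions between these lines. In the control MMP9 measured 18.7, 20.1 and 21.3 CPM, which overlapped MMP2sh2, and the difference of MMP2sh2 from control was 0.44 ± 0.10, adjusted p = 0.00476.

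Plasminogen activators and most called serpins were higher in MMP2sh1 (4.59% of all genes tested were called higher and 3.27% lower). The urokinase gene PLAU measured 176, 172 and 180.3 CPM in MMP2sh1 and 117, 115 and 107 CPM in MMP2sh2 (log2 fold change 0.64 ± 0.06, adjusted p = 4.62e-08). The tissue activator PLAT measured 187, 180.3 and 179.7 CPM in MMP2sh1 and 126, 127 and 119.7 CPM in MMP2sh2 (log2 fold change 0.55 ± 0.06, adjusted p = 2.82e-07). Both enzymes turn plasminogen into plasmin, a broad protease of fibrin and matrix. The plasminogen-binding ANXA2 fell (−0.17 ± 0.04, adjusted p = 0.0134), which made 2 higher and 1 lower of 5 tested, and its adjusted p was 0.0929 without MMP2sh1 replicate 2. Of 22 serpins and other protease inhibitors 5 rose, 1 fell and 19 were above 0 (median 0.43, 6 called also without each library in turn). SERPINE2, protease nexin 1, measured 247, 251 and 265 CPM in MMP2sh1 and 161, 151 and 158 CPM in MMP2sh2 (log2 fold change 0.69 ± 0.05, adjusted p = 6.25e-09). SERPINA1, the elastase inhibitor (0.62 ± 0.05, adjusted p = 9.52e-09), SERPING1, the C1 inhibitor (0.45 ± 0.06, adjusted p = 2.51e-05), and SERPINF1 (0.42 ± 0.07, adjusted p = 0.000402) rose. The others called, named after their values were seen, were SERPINI1 (1.26 ± 0.23, adjusted p = 0.000646) and SERPINB7 (−1.21 ± 0.22, adjusted p = 0.000779).

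ADAM and ADAMTS proteases were mixed, with 4 lower and 3 higher of 27 tested (3.27% of all genes were called lower and 4.59% higher). ADAM28 rose from a low level (15.5, 14.9 and 16.9 CPM in MMP2sh1 and 5.64, 5.57 and 5.81 CPM in MMP2sh2, log2 fold change 1.47 ± 0.12, adjusted p = 6.25e-09), ADAM19 rose (0.37 ± 0.05, adjusted p = 4.55e-05) in a count that overlaps other genes, and ADAM12 fell (−0.70 ± 0.10, adjusted p = 4.41e-05). The number called was 3 without MMP2sh1 replicate 2, 3 without MMP2sh1 replicate 3 and 4 without MMP2sh2 replicate 1. Among 14 cathepsins CTSZ rose (0.37 ± 0.06, adjusted p = 0.000139, overlapping NELFCD) and 2 others were lower, and the number called was 1 without MMP2sh2 replicate 1 and 5 without MMP2sh2 replicate 3.

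Collagens and their partners differed in both directions (4.59% of all genes tested were called higher and 3.27% lower). Of 24 nonfibrillar collagens 4 rose and 0 fell (median 0.18), namely COL22A1 (129.9, 117 and 107 CPM in MMP2sh1 and 68.0, 68.3 and 59.1 CPM in MMP2sh2, log2 fold change 0.85 ± 0.07, adjusted p = 2.7e-08), COL6A3 (0.41 ± 0.05, adjusted p = 1.23e-06), COL8A1 (0.58 ± 0.07, adjusted p = 2.58e-06) and the basement membrane chain COL4A1 (0.41 ± 0.06, adjusted p = 0.000142), which overlaps COL4A2. Of 10 fibrillar collagens COL1A1 (0.27 ± 0.06, adjusted p = 0.00259) and COL11A1 rose and COL3A1 fell, and 1 was called without MMP2sh2 replicate 1. Of these 10, 6 were below 0 (median −0.17). Collagen processing enzymes had 4 higher and 2 lower of 21, led by LOXL3, a cross-linking oxidase (0.59 ± 0.08, adjusted p = 3.78e-05, overlapping DOK1 and HTRA2), with 3 called without MMP2sh2 replicate 2. Of 45 matrix glycoproteins and proteoglycans 9 rose and 5 fell (median −0.0033), and 9 were called without MMP2sh2 replicate 1. SPARC, a collagen-binding protein of bone, measured 2088, 2032 and 2074 CPM in MMP2sh1 and 1509, 1569 and 1530.2 CPM in MMP2sh2 (log2 fold change 0.42 ± 0.04, adjusted p = 9.2e-08). Fibronectin FN1 measured 3678, 3766 and 3512 CPM in MMP2sh1 and 3074, 3008 and 2787 CPM in MMP2sh2 (log2 fold change 0.30 ± 0.04, adjusted p = 5.15e-05), and its call ended in the fit on all 27 libraries (adjusted p = 0.0729). The latent TGF-beta binding protein LTBP2 rose (0.46 ± 0.06, adjusted p = 6.37e-06). The microfibril protein FBN2 fell (−0.71 ± 0.07, adjusted p = 4.76e-07, overlapping SLC27A6). Mesenchymal marker transcripts summed to 8212 to 8503 CPM in MMP2sh1, 6609 to 6940 CPM in MMP2sh2 and 6691 to 7567 CPM in the control, and the list shares SPARC, FN1 and COL1A1 with the matrix lists. The part of that sum in the matrix differences was not tested.

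Adhesion receptors showed rises without falls among the integrins. Of 20 integrin genes 5 rose and 0 fell (median 0.14, with 4.59% of all genes called higher and 3.27% lower). At day −2, 1 of 18 was higher and 4 lower (10.7% of all genes called in either direction). At day 0, 5 of 20 were higher and 3 lower (18.5% of all genes). ITGB3, the beta chain of the vitronectin receptor, measured 71.9, 75.1 and 78.5 CPM in MMP2sh1 and 41.8, 40.4 and 39.0 CPM in MMP2sh2 (log2 fold change 0.89 ± 0.07, adjusted p = 2.34e-09). ITGA2, a collagen receptor chain, measured 247, 257 and 256 CPM in MMP2sh1 and 176, 158 and 167 CPM in MMP2sh2 (log2 fold change 0.59 ± 0.06, adjusted p = 7.62e-08). ITGA1, another such chain, rose (0.78 ± 0.10, adjusted p = 1.12e-05) in a count that overlaps PELO. Laminins, the cross-shaped trimers of basement membrane, had 4 higher and 3 lower of 11 tested. LAMA3 measured 12.3, 13.2 and 11.1 CPM in MMP2sh1 and 3.63, 3.95 and 2.13 CPM in MMP2sh2 (log2 fold change 1.91 ± 0.17, adjusted p = 4.89e-08), and LAMB1 rose (0.47 ± 0.05, adjusted p = 1.61e-06, overlapping DLD) while LAMA4 (−0.37 ± 0.06, adjusted p = 0.000226) and LAMB2 (−0.41 ± 0.08, adjusted p = 0.0011) fell. Of 14 cadherins CDH13, a cadherin anchored by a lipid tail, fell (−0.71 ± 0.10, adjusted p = 4.67e-05, overlapping HSBP1) and CDH12 rose, but 1 was called without each of MMP2sh1 replicate 3, MMP2sh2 replicate 1 and MMP2sh2 replicate 2. Axon guidance genes had 10 higher and 7 lower of 51 (median −0.05). The guidance ligand SLIT3 (18.5, 21.1 and 23.1 CPM in MMP2sh1 and 8.93, 7.92 and 9.18 CPM in MMP2sh2, log2 fold change 1.26 ± 0.11, adjusted p = 2.48e-08), the semaphorin SEMA6A (0.98 ± 0.09, adjusted p = 5.52e-08), the ephrin receptor EPHB6 (0.62 ± 0.07, adjusted p = 5.8e-07) and neuropilin NRP1 (0.44 ± 0.05, adjusted p = 1.76e-06) rose. Chosen after their values were seen, the netrin NTN4 fell (−0.76 ± 0.10, adjusted p = 8.81e-06) and the netrin receptor UNC5C rose (0.68 ± 0.09, adjusted p = 7.31e-06).

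Growth factor genes and receptor tyrosine kinases differed in both directions, with 9 higher and 8 lower of 46 tested. For this list and those below, 4.59% of all genes tested were called higher and 3.27% lower. The mitogens PDGFA, at 200.3, 199 and 203 CPM in MMP2sh1 and 133, 128 and 128 CPM in MMP2sh2 (log2 fold change 0.63 ± 0.05, adjusted p = 2.46e-08), and FGF1 (0.85 ± 0.07, adjusted p = 2.7e-08) rose. The lymphatic growth factor VEGFC, at 2.82, 2.54 and 3.02 CPM in MMP2sh1 and 7.09, 8.32 and 6.81 CPM in MMP2sh2 (log2 fold change −1.41 ± 0.16, adjusted p = 2.54e-06), and the hepatocyte growth factor receptor MET (−0.59 ± 0.07, adjusted p = 1.78e-06) fell. Of 38 TGF-beta and BMP genes 6 rose and 4 fell, among them the activin chain INHBA (0.67 ± 0.08, adjusted p = 6.69e-06) and ID3 (−0.64 ± 0.10, adjusted p = 0.000116), and 6 were called without MMP2sh1 replicate 3 or MMP2sh2 replicate 2. WNT signalling had 4 lower and 3 higher of 38, with the secreted antagonists NOTUM (−0.77 ± 0.10, adjusted p = 1.55e-05) and SFRP1 (−0.45 ± 0.07, adjusted p = 4.67e-05) lower and the transcription factor LEF1 higher (0.57 ± 0.08, adjusted p = 4.71e-05). Of 20 YAP and TEAD targets 3 rose and 1 fell, and CTGF, a matricellular target, rose (0.42 ± 0.05, adjusted p = 6.69e-06). TNFRSF11B, the decoy receptor osteoprotegerin that restrains bone resorption, measured 226.5, 240.1 and 265 CPM in MMP2sh1 and 110.0, 114 and 132 CPM in MMP2sh2 (log2 fold change 1.04 ± 0.07, adjusted p = 2.43e-10) and led the osteoblast lineage genes, of which 4 rose and 1 fell of 16 (3 called without MMP2sh2 replicate 1 or MMP2sh2 replicate 3).

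Actin and contractility genes had 5 lower and 3 higher of 39 (3.27% of all genes were called lower and 4.59% higher). The smooth muscle myosin light chain kinase MYLK rose (0.71 ± 0.06, adjusted p = 2.46e-08) and vinculin VCL rose (0.31 ± 0.05, adjusted p = 0.000299, overlapping AP3M1), while the nonmuscle myosin MYH9 (−0.36 ± 0.04, adjusted p = 5.06e-06) and the LIM protein FHL2 (−0.46 ± 0.06, adjusted p = 3.88e-06) fell. Glycolysis and hypoxia genes had 6 higher and 2 lower of 39 (median −0.0014), led by NDRG1 (0.41 ± 0.06, adjusted p = 3.94e-05) and the lactate exporter SLC16A3 (0.78 ± 0.12, adjusted p = 5.71e-05, overlapping CSNK1D). The number called was 5 without MMP2sh1 replicate 2, 4 without MMP2sh2 replicate 1 and 3 without MMP2sh2 replicate 2. Cholesterol and fatty acid synthesis genes were called only as higher in MMP2sh1, in 10% and 17.4% of those tested (4.59% of all genes tested). Their highest log2 fold changes were 0.28 and 0.27. Of 20 cholesterol synthesis genes 2 rose (median 0.08), with the number called 1 without MMP2sh1 replicate 2, 1 without MMP2sh1 replicate 3, 1 without MMP2sh2 replicate 1, 1 without MMP2sh2 replicate 2 and 4 without MMP2sh2 replicate 3, and of 23 fatty acid genes 4 rose, of which 1 was called without MMP2sh1 replicate 2, MMP2sh2 replicate 1 or MMP2sh2 replicate 2.

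Immune genes were also mixed (3.27% of all genes tested were called lower and 4.59% higher). Chemokines and cytokines had 6 lower and 2 higher of 36, among them TNFAIP6, a hyaluronan-binding protein (1.55 ± 0.22, adjusted p = 3.77e-05), CCL2 (0.47 ± 0.07, adjusted p = 0.000136), CSF1 (−0.56 ± 0.08, adjusted p = 4.55e-05) and IL32 (−0.78 ± 0.12, adjusted p = 8.58e-05), and 5 were called without MMP2sh1 replicate 2. Interferon-stimulated genes had 5 lower and 3 higher of 43, led by TRIM22 (−0.52 ± 0.08, adjusted p = 9.33e-05, overlapping TRIM5). The number of them called was 4 without MMP2sh1 replicate 2 and 3 without MMP2sh2 replicate 1. Complement genes had 3 lower and 2 higher of 20, with the surface regulator CD46 higher (0.35 ± 0.05, adjusted p = 0.000102) and clusterin CLU lower (−0.29 ± 0.06, adjusted p = 0.00222). Of 21 HLA and antigen presentation genes 3 were higher and 1 lower, with the class II chain HLA-DQB1 (0.78 ± 0.12, adjusted p = 6.4e-05) higher as well as HLA-DPA1. The number called there was 7 without MMP2sh1 replicate 1 and 2 without MMP2sh1 replicate 2.

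The smaller signalling lists stand beside 4.59% of all genes tested called higher and 3.27% lower. NOTCH genes had 3 higher and 0 lower of 17, among them the glycosyltransferase LFNG (0.34 ± 0.06, adjusted p = 0.000225) and the coactivator MAML2 (0.41 ± 0.08, adjusted p = 0.00104). Immediate early genes had 3 higher and 2 lower of 34, with the transcription factor KLF6 higher (0.36 ± 0.06, adjusted p = 0.000173), and the number called was 3 without MMP2sh1 replicate 3, 3 without MMP2sh2 replicate 1 and 3 without MMP2sh2 replicate 2. Sterol transport genes had 2 higher and 2 lower of 17, with the sterol exporter ABCG1 lower (−0.41 ± 0.07, adjusted p = 0.000266), and the number was 1 without MMP2sh1 replicate 2 and 2 without MMP2sh2 replicate 2. Phospholipid genes had 1 higher and 2 lower of 19, and the number called was 1 without MMP2sh1 replicate 2, 0 without MMP2sh1 replicate 3, 0 without MMP2sh2 replicate 1 and 0 without MMP2sh2 replicate 2. Protocadherins of the beta cluster had 2 lower of 15, and the number called was 1 without MMP2sh1 replicate 2, 0 without MMP2sh1 replicate 3, 0 without MMP2sh2 replicate 1 and 0 without MMP2sh2 replicate 2. Of 3 metallothioneins MT1E fell (−0.46 ± 0.09, adjusted p = 0.000894), and the number called was 2 without MMP2sh1 replicate 2.

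The other lists ranged from a smaller to a larger share called than the 7.86% of all genes. Of 467 genes named ZNF, 21 were lower and 6 higher (median −0.07). With a library left out the number called was 17 without MMP2sh1 replicate 2, 14 without MMP2sh2 replicate 1 and 16 without MMP2sh2 replicate 2. Of 86 cytosolic ribosomal protein genes 3 were lower and 0 higher (median −0.01), which became 11 without MMP2sh1 replicate 1, 1 without MMP2sh2 replicate 1 and 1 without MMP2sh2 replicate 2. Of 34 enzymes that write, erase or cut histone H3 tails 2 were lower and 0 higher. The number was 0 without MMP2sh1 replicate 2, 0 without MMP2sh2 replicate 1, 1 without MMP2sh2 replicate 2 and 5 without MMP2sh2 replicate 3. Among 42 lysosomal genes 2 rose and 2 fell, LAPTM5 with the largest difference (1.35 ± 0.20, adjusted p = 5.08e-05), and 2 were called without MMP2sh1 replicate 3 or MMP2sh2 replicate 1. Of 14 genes of the small RNA machinery, which the hairpin itself uses, DICER1 and TNRC6C were higher (0.27 ± 0.07 and 0.38 ± 0.09, adjusted p = 0.0119 and 0.0102), but DICER1 lost its call without MMP2sh1 replicate 2 (0.0943), MMP2sh1 replicate 3 (0.057) or MMP2sh2 replicate 2 (0.0902) and TNRC6C without MMP2sh1 replicate 1 (0.0733). Neuronal and glial genes had 5 higher and 4 lower of 21, led by the synaptic adhesion molecule NRXN3 (1.28 ± 0.10, adjusted p = 1.07e-08), with the number called 5 without MMP2sh1 replicate 3, 5 without MMP2sh2 replicate 1 and 4 without MMP2sh2 replicate 2.

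**Figure D3:**
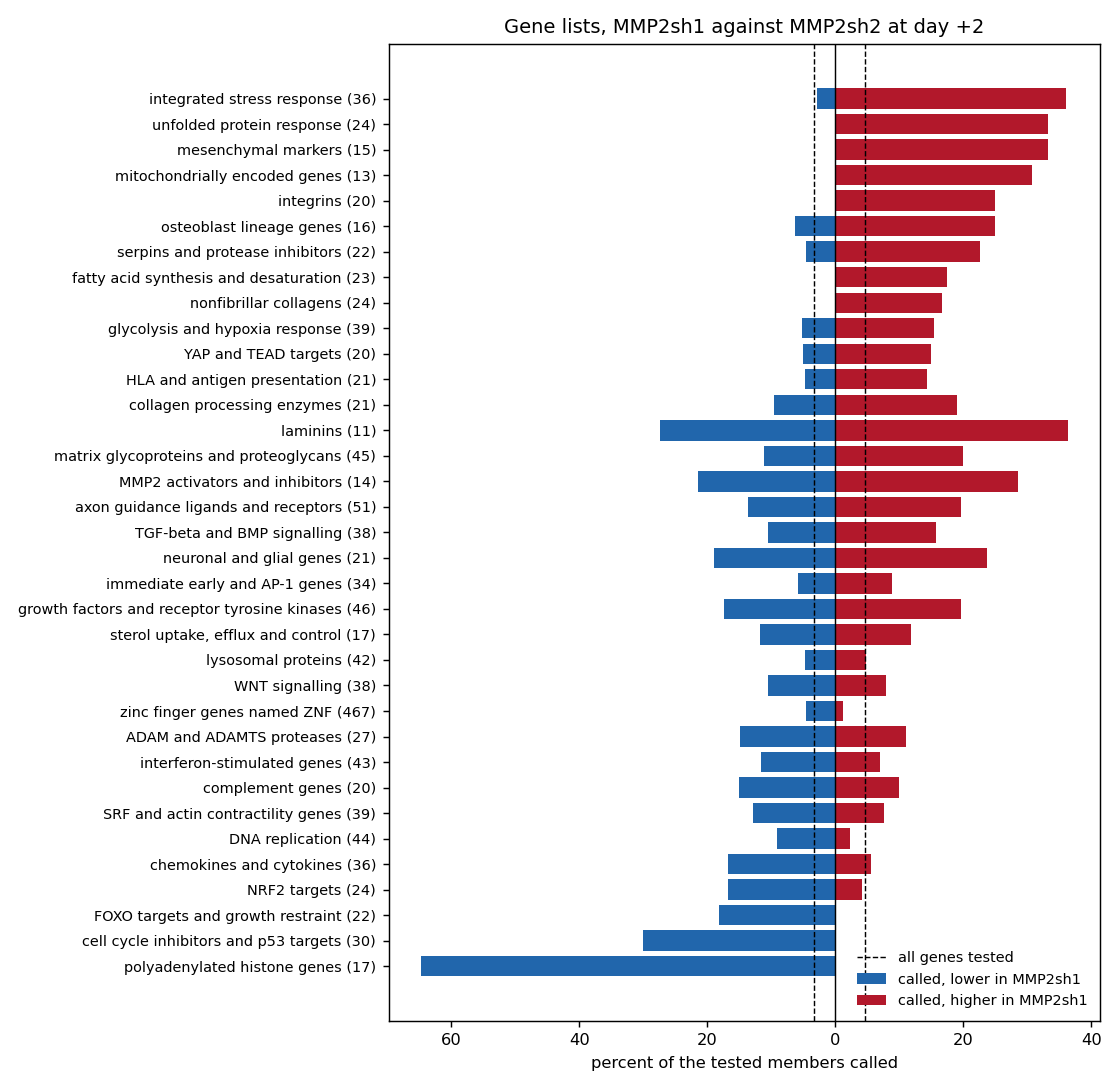
Percent of tested members called lower (left) and higher (right) in MMP2sh1 for each gene list with 10 or more members tested and 4 or more called, with dashed lines at 3.27% and 4.59% for all genes tested. Histone and p53 lists lie wholly to the left, and integrin and unfolded protein response lists, among others, wholly to the right.

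Setting the control beside the knockdown lines gave the order of the 3 lines at day +2, as a description over mean CPM with no test. Of the 1527 called genes 256 (16.8%) had the order control above MMP2sh2 above MMP2sh1, as MMP2 itself did, and 334 (21.9%) the reverse, against 19.8% and 20.4% of all genes tested. The control lay between the lines in 875 (57.3%), against 32.1% of all genes tested. With the stricter demand that no library of any line overlapped another, 99 called genes (6.48%) stepped down with MMP2 and 125 (8.19%) stepped up, against 1.21% and 1.35% of all genes tested, and the called genes had already been chosen for a difference between the knockdown lines. NOV is an example of the first kind, at 25.4% of the control mean in MMP2sh1 and 62.9% in MMP2sh2, and PLAU of the second, at 202% and 129%. ENPP1, an ectoenzyme that makes pyrophosphate and limits mineral, is neither, at 96.8% and 37.3% of control, so that its higher level in MMP2sh1 (1.37 ± 0.11, adjusted p = 5.14e-09) went with a low level in MMP2sh2.

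Against the control, 2854 of 19294 genes (14.8%) were called in MMP2sh1 and 1222 of 19339 (6.32%) in MMP2sh2. Both comparisons share the control libraries, and each shares 3 libraries with the comparison of the knockdown lines. Side by side, the MMP2sh1 minus control and MMP2sh2 minus control log2 fold changes were −1.97 ± 0.07 and −0.66 ± 0.06 for NOV, −1.09 ± 0.06 and 0.14 ± 0.05 for HIST1H1C, 0.89 ± 0.07 and 0.38 ± 0.06 for ASNS, and 0.41 ± 0.05 and −0.28 ± 0.05 for SERPINE2. HIST1H1C in MMP2sh2 did not pass the test against control (adjusted p = 0.134). SERPINE2 was above control in MMP2sh1 and below it in MMP2sh2 (adjusted p = 9.77e-07 and 0.000266). GDF15 was below control in both lines (−1.22 ± 0.10 and −0.42 ± 0.09), and F13A1 above it in both (1.72 ± 0.08 and 0.45 ± 0.08).

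The same lines were compared at the earlier stages to place the overconfluent difference in time. At day −2, 2009 of 18784 genes (10.7%) were called and at day 0, 3496 of 18875 (18.5%). The day −2 count was 1208 without MMP2sh1 replicate 1, 1293 without MMP2sh1 replicate 2 and 1282 without MMP2sh2 replicate 2. Of the 1527 genes called at day +2, 838 (54.9%) were called with the same sign at day 0 and 17 with the other sign, and 532 (34.8%) and 26 at day −2. The 466 genes called with 1 sign at all 3 stages comprised 278 lower and 188 higher in MMP2sh1, and 594 genes were called at day +2 alone, of which 127 also had a difference that changed with the day in at least 1 test of line by day. Those tests called 305 of 20706 genes against day −2 (1.47%; 99 more negative, 0.478%, and 206 more positive, 0.995%, at day +2) and 309 of 20626 against day 0 (1.5%; 82 more negative, 0.398%, and 227 more positive, 1.1%). Against day −2 the count fell to 175 and 192 without overconfluent MMP2sh2 replicates 1 and 3, to 200 without overconfluent MMP2sh1 replicate 2 and to 179 without subconfluent MMP2sh2 replicate 2. Against day 0 it fell to 177 and 175 without confluent MMP2sh1 replicates 1 and 2 and to 184 and 179 without confluent MMP2sh2 replicates 1 and 2.

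In 6 lists of matrix, protease and mesenchymal genes, differences that changed with overconfluence mostly became more positive in MMP2sh1 (0.995% of all genes did so against day −2 and 1.1% against day 0). Of 5 plasminogen activation genes 4 were more positive than at day −2 and 2 than at day 0, of 10 fibrillar collagens 4 and 0, of 24 nonfibrillar collagens 4 and 4, of 45 matrix glycoproteins and proteoglycans 9 and 6, of 22 serpins 3 and 3, and of 15 mesenchymal markers 4 and 2. A more negative difference was found for 1 and 2 of the glycoproteins and 1 and 1 of the serpins, and for 0 members of the others of these 6. Outside them, MMP2 activators and inhibitors had 2 more positive and 1 more negative of 14 against day −2, and 1 and 1 against day 0. Laminins had 1 and 1 of 11, and 1 and 0. ADAM and ADAMTS proteases (of 27) and collagen processing enzymes (of 21) had 2 and 0 against each day. At day −2, 5 of these 6 lists, all but the serpins, had more members lower than higher in MMP2sh1 (10.7% of all genes were called in either direction), with 6 of the fibrillar collagens lower and 0 higher, 15 of the glycoproteins lower and 2 higher and 3 of the plasminogen genes lower and 0 higher. The median of the fibrillar collagens moved from −0.27 at day −2 through −0.08 at day 0 to −0.17 at day +2, and that of the glycoproteins from −0.23 through −0.06 to −0.0033. FN1 was lower in MMP2sh1 at day −2 (−0.53 ± 0.11, adjusted p = 0.00227). It remained lower at confluence (−0.21 ± 0.05, adjusted p = 0.00198) and was higher at day +2, a call that ended in the fit on all 27 libraries. MMP14 likewise was lower at day −2 (−0.31 ± 0.08, adjusted p = 0.00925), did not pass the test at day 0 (−0.12 ± 0.06, adjusted p = 0.183) and was higher at day +2.

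Other genes followed other courses. KLK6 was higher in MMP2sh1 at day −2 (1.05 ± 0.09), day 0 (0.82 ± 0.08) and day +2 (1.00 ± 0.06), and neither test of line by day called it (adjusted p = 0.921 and 0.428).  NOV, a matricellular protein, widened its deficit from −0.25 ± 0.07 through −0.73 ± 0.05 to −1.31 ± 0.07. PRR4 measured 0.18 ± 0.18 at day −2 and 0.39 ± 0.13 at day 0 before its 1.57 ± 0.09 at day +2. Its mean in MMP2sh1 was 6.30, 8.59 and 41.7 CPM over the 3 stages against 5.53, 6.62 and 14.0 CPM in MMP2sh2. ENPP1 climbed from 8.003 through 20.97 to 33.9 CPM in MMP2sh1 and from 8.86 through 12.4 to 13.1 CPM in MMP2sh2.

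**Figure D4:**
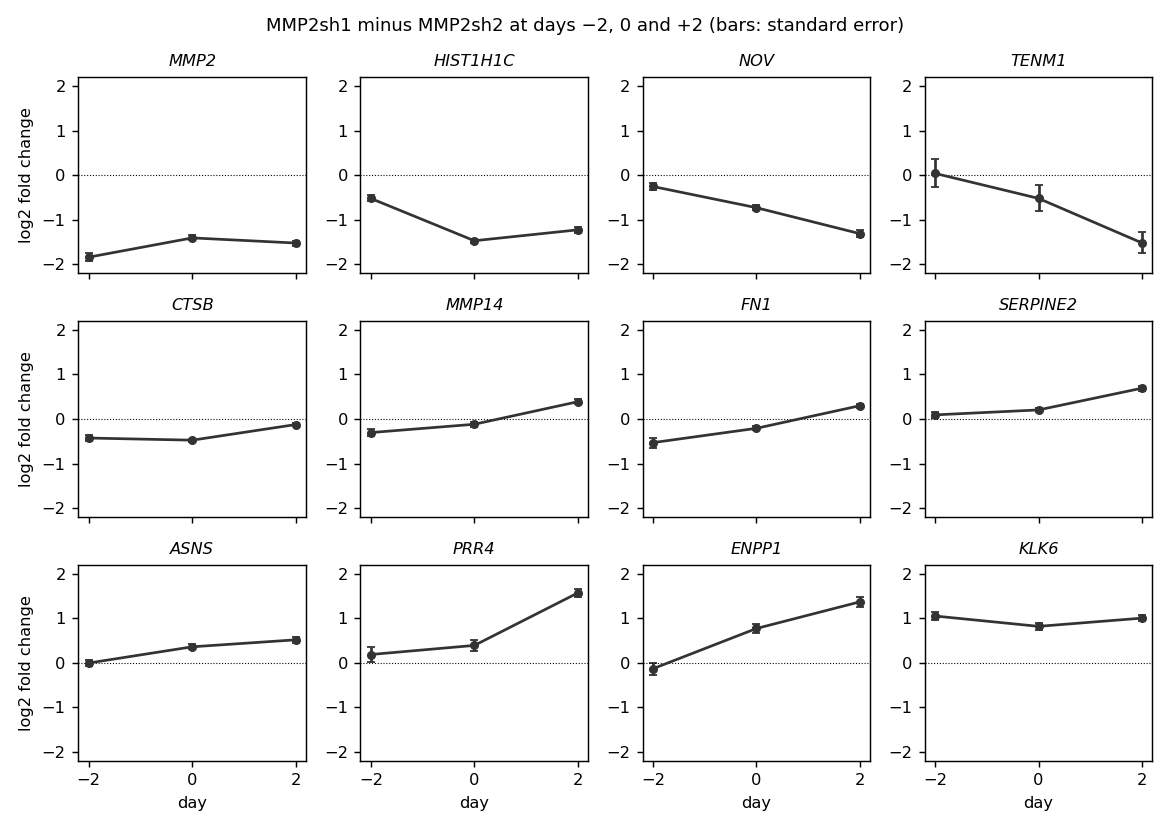
MMP2sh1 minus MMP2sh2 log2 fold change (points, y axis) with its standard error (bars) at days −2, 0 and +2 (x axis) for 12 genes, each day fitted on its own 6 libraries. MMP2 and KLK6 keep their sign and rough size, whereas MMP14 and FN1 cross 0 and PRR4 and ENPP1 move up.

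Differences along the chromosomes were small. Of 19427 tested genes 16047 could be placed on GRCh37, and chromosome medians of the log2 fold change ran from −0.0789 on chromosome 19 to 0.0636 on chromosome 14. Of 269 windows of 10 Mb with 20 or more tested genes, 243 had a median within 0.1 of 0. The lowest median was in the first window of chromosome 18 (chr18:1-10000000), where 15 of 45 tested genes were called, all lower in MMP2sh1, and 40 were below 0 (median −0.18). The same window had a median of −0.05 at day −2 and −0.15 at day 0, and of −0.17 for MMP2sh1 minus control and −0.02 for MMP2sh2 minus control. The next window (chr18:10000001-20000000) had 5 genes lower and 1 higher of 31 (median −0.13). On chromosome 7, 81 genes were higher and 19 lower of 754 tested, and its window chr7:140000001-150000000 had 12 genes higher and 0 lower of 52 (median 0.147). DNA copy number was not measured, and its part in these windows was not tested.

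**Figure D5:**
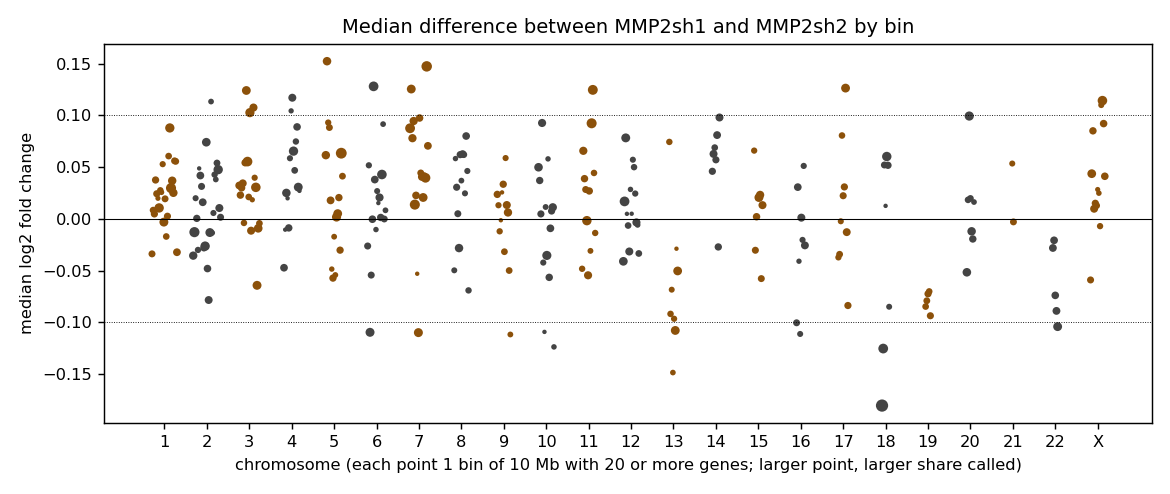
Median MMP2sh1 minus MMP2sh2 log2 fold change of tested genes in each 10 Mb window with 20 or more genes (points, sized by the share called), by chromosome, with dotted lines at 0.1 and −0.1. All but 26 of 269 windows lie between the lines, and the first window of chromosome 18 is the lowest.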

How the data were processed

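Poly(A) RNA of U2OS cells was sequenced by the authors as paired-end libraries, which were trimmed with Trim Galore 0.6.0, aligned to hg19 with STAR 2.7.3a, filtered with Samtools and counted over exons without strand with HTSeq 2.0.0. The deposited values are whole-number counts per gene symbol, 1 file per library. Summary lines that name no gene took 18.4% to 19.1% of each library at day +2 (ambiguous reads 6.95% to 7.18%) and were left out. Counts of overlapping genes and near-identical copies are therefore uncertain.

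Samples were grouped by line and stage from the labels. Genes passing edgeR's filterByExpr (minimum count 10, minimum total 15) were tested with edgeR 4.0.16 in R 4.3.3 by the quasi-likelihood test after TMM scaling, with Benjamini-Hochberg adjustment and a threshold of 0.05, on the 6 libraries compared. Changes with the day were tested as the interaction of line and day on 12 libraries. The standard error is the absolute log2 fold change divided by the root of the F statistic. CPM used TMM factors over all 27 libraries. Library totals on genes ran from 37907001 to 40844889 counts at day +2. Intervals of count ratios (95%, exact) cover counting error only. The study itself used DESeq2, which was run here (1.42.0) as an alternative, beside RLE scaling, other filters, a replicate block, all libraries in 1 fit and leaving out each library.

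Genes were named by rule: MMP2 and CTSB, the 12 largest called falls and rises with a mean of at least 1 CPM in a line and no overlap, the 6 smallest adjusted p not yet named, up to 4 called members of each of 52 lists with the smallest adjusted p, and the 5 largest changes with the day in each direction. The 13 exceptions are said to have been chosen after their values were seen. The comparison, the lists and the rule were chosen with earlier results of these data known, so no list is independent evidence of its direction. Positions are from GENCODE on GRCh37, to which 16047 of 19427 tested symbols matched (1084 by an older symbol). Scripts were tested on simulated data. Hairpin sequences were not used here, and some genes are not reported here and were left out of the lists.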

Additional observations from a re-analysis of the deposited data

Results flagged for a closer look

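Each result here is a gene whose MMP2sh1 minus MMP2sh2 difference at day +2 differed from that at an earlier day in edgeR's quasi-likelihood test of line by day, and the value is the change of the log2 difference with its standard error (a positive value means that MMP2sh1 gained relative to MMP2sh2 by day +2). The genes of the lists were chosen for their difference at day +2, so the sign of these changes is not independent of that choice. No group had 4 or more samples, so no test for outlying samples was made.

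Proteases and their inhibitors that gained by overconfluence against both earlier days were MMP14 (0.69 ± 0.11, adjusted p = 0.000262) against day −2 and (0.51 ± 0.09, adjusted p = 0.00202) against day 0, PLAU (0.48 ± 0.11, adjusted p = 0.0177) against day −2 and (0.73 ± 0.09, adjusted p = 1.18e-05) against day 0, PLAT (0.72 ± 0.10, adjusted p = 0.000127) against day −2 and (0.61 ± 0.07, adjusted p = 1.18e-05) against day 0, and the protease ADAM19 (0.43 ± 0.09, adjusted p = 0.00842) against day −2 and (0.28 ± 0.07, adjusted p = 0.0173) against day 0. Protease inhibitors changed in the same direction, with SERPINE2 (0.60 ± 0.09, adjusted p = 0.00019) against day −2 and (0.49 ± 0.07, adjusted p = 0.000132) against day 0 and SERPING1 (0.50 ± 0.10, adjusted p = 0.00353) against day −2 and (0.38 ± 0.09, adjusted p = 0.0173) against day 0. The exceptions were MMP24 (−0.93 ± 0.11, adjusted p = 9.38e-06) against day −2 and (−0.68 ± 0.10, adjusted p = 0.000224) against day 0 and SERPINB7 (−1.28 ± 0.21, adjusted p = 0.000537) against day −2 and (−0.89 ± 0.22, adjusted p = 0.0269) against day 0. At day −2 the mean of MMP14 was the lower in MMP2sh1 (111 against 138 CPM) and at day +2 the higher (293 against 222.9 CPM).

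Matrix and adhesion genes that gained were FN1 (0.83 ± 0.16, adjusted p = 0.00331) against day −2 and (0.51 ± 0.08, adjusted p = 0.000167) against day 0, COL4A1 (0.64 ± 0.10, adjusted p = 0.000359) against day −2 and (0.34 ± 0.08, adjusted p = 0.0298) against day 0, COL22A1 (0.86 ± 0.12, adjusted p = 0.000105) against day −2 and (0.76 ± 0.13, adjusted p = 0.00133) against day 0, ITGA1 (0.71 ± 0.17, adjusted p = 0.0286) against day −2 and (0.70 ± 0.15, adjusted p = 0.0131) against day 0, CD44 (0.34 ± 0.09, adjusted p = 0.0489) against day −2 and (0.38 ± 0.07, adjusted p = 0.00308) against day 0 and VCL (0.36 ± 0.07, adjusted p = 0.00792) against day −2 and (0.38 ± 0.06, adjusted p = 0.000611) against day 0. The LIM protein lost ground, with FHL2 (−0.55 ± 0.08, adjusted p = 0.000127) against day −2 and (−0.41 ± 0.07, adjusted p = 0.000784) against day 0. Secreted guidance and growth factors and their receptors gained as well, namely SLIT3 (1.16 ± 0.19, adjusted p = 0.000581) against day −2 and (0.99 ± 0.17, adjusted p = 0.000773) against day 0, NRP1 (0.60 ± 0.10, adjusted p = 0.000833) against day −2 and (0.51 ± 0.07, adjusted p = 3.95e-05) against day 0, PDGFA (0.66 ± 0.09, adjusted p = 6.11e-05) against day −2 and (0.66 ± 0.08, adjusted p = 1.18e-05) against day 0 and FGF1 (0.61 ± 0.13, adjusted p = 0.00964) against day −2 and (0.79 ± 0.12, adjusted p = 0.000169) against day 0. The synaptic adhesion molecule NRXN3 (1.14 ± 0.14, adjusted p = 2.85e-05) against day −2 and (0.68 ± 0.15, adjusted p = 0.0147) against day 0 gained too. Metabolic genes that gained were NDRG1 (0.65 ± 0.08, adjusted p = 3.62e-05) against day −2 and (0.57 ± 0.08, adjusted p = 4.71e-05) against day 0, SLC1A5 (0.42 ± 0.09, adjusted p = 0.0097) against day −2 and (0.33 ± 0.06, adjusted p = 0.00286) against day 0, SLC16A14 (1.39 ± 0.26, adjusted p = 0.00359) against day −2 and (1.29 ± 0.27, adjusted p = 0.00631) against day 0 and ENPP1 (1.499 ± 0.17, adjusted p = 7.58e-06) against day −2 and (0.61 ± 0.14, adjusted p = 0.0242) against day 0.

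Against day −2, further genes with a more negative difference were HIST1H1C (−0.71 ± 0.09, adjusted p = 2.85e-05), F2RL2 (−0.52 ± 0.12, adjusted p = 0.0172), LRRC17 (−2.22 ± 0.51, adjusted p = 0.0193), TENM1 (−1.56 ± 0.40, adjusted p = 0.0409), LRRN4 (−1.88 ± 0.44, adjusted p = 0.0236), C1orf116 (−2.75 ± 0.67, adjusted p = 0.0302), C4orf26 (−2.38 ± 0.40, adjusted p = 0.000894), NOV (−1.06 ± 0.11, adjusted p = 7.76e-07) and the pseudogene ANKRD20A19P (−1.09 ± 0.26, adjusted p = 0.025). The mean of C4orf26 fell from 7.51 to 0.812 CPM in MMP2sh1 and from 1.41 to 0.793 CPM in MMP2sh2. KLRC2 had 0 counts in all 3 MMP2sh2 libraries and 5, 8 and 4 in MMP2sh1 at day −2, so its fitted value KLRC2 (−4.80 ± 1.121, adjusted p = 0.0251) depends on the prior count. Genes with a more positive difference were PRR4 (1.39 ± 0.19, adjusted p = 4.47e-05), SRPX (0.44 ± 0.09, adjusted p = 0.0111), ATP6V0A4 (1.24 ± 0.30, adjusted p = 0.0293), TMEM163 (2.52 ± 0.47, adjusted p = 0.00325) and CHRNA1 (3.67 ± 0.93, adjusted p = 0.0396). At day −2 CHRNA1 had 0, 1 and 2 counts in MMP2sh1 and 13, 1 and 6 in MMP2sh2, so its change rests on few reads.

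Against day 0, further genes with a more negative difference were NOV (−0.58 ± 0.09, adjusted p = 0.000439), LRRC17 (−2.13 ± 0.45, adjusted p = 0.00914), CLEC7A (−1.86 ± 0.49, adjusted p = 0.0482), CBLN4 (−2.65 ± 0.66, adjusted p = 0.034), RGCC (−1.30 ± 0.25, adjusted p = 0.0029) and RPS17L (−1.30 ± 0.32, adjusted p = 0.0286), the last a near-identical copy of another ribosomal protein gene and therefore uncertain. At day 0 CBLN4 had 33, 9 and 22 counts in MMP2sh1 and 5, 5 and 0 in MMP2sh2, so its change rests on few reads. Genes with a more positive difference were PRR4 (1.18 ± 0.15, adjusted p = 1.83e-05), CTSB (0.36 ± 0.05, adjusted p = 0.000113), MB (2.79 ± 0.69, adjusted p = 0.0308), C3 (1.40 ± 0.27, adjusted p = 0.00374), ADCY8 (1.94 ± 0.48, adjusted p = 0.0297), HEPHL1 (2.59 ± 0.67, adjusted p = 0.0458) and SAA1 (2.34 ± 0.62, adjusted p = 0.0494). SAA1 fell from 0.957 to 0.356 CPM in MMP2sh1 and from 2.00 to 0.144 CPM in MMP2sh2 between these days.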

How the results depend on the processing

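At day +2 the number of genes called was 1845 with DESeq2, 1518 with RLE scaling, 1662 without a filter, 1574 with a stricter filter (10 counts in every library) and 1743 with all 27 libraries in the fit, against 1527. With a library left out it was 885 to 1625. At day −2 it was 1208 to 1946 (2009 in the main analysis) and at day 0 it was 2464 to 3224 (3496). For the change of the difference against day −2 (305), DESeq2 called 504, the fit on all 27 libraries 530 and the fits with a library left out 175 to 343. Against day 0 (309) these were 553, 262 and 175 to 299. Of the 213 named genes called at day +2, 151 were called without each library in turn, and 17 lost their call in the fit on all 27 libraries.

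Whether the replicate numbers pair the libraries was not settled. Deviations of same-numbered libraries from their line means correlated at 0.0312, 0.00606 and 0.0753, and those of differently numbered libraries at −0.0658 to 0.0362. MMP2sh1 replicate 1 correlated best with MMP2sh2 replicate 2, and MMP2sh1 replicates 2 and 3 with the MMP2sh2 library of the same number. With the replicate number as a block, 2113 genes were called at day +2, including all 1527, 2974 at day −2, and 217 and 284 for the changes against day −2 and day 0.

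Direction reversed only for genes not called at day +2, in fits that leave out a library. C1orf116 (0.54) became −0.16 without MMP2sh1 replicate 2 (highest value 0.996). C4orf26 (0.03) was −0.041, −0.033, −0.19 and −0.047 without MMP2sh1 replicate 1, MMP2sh1 replicate 2, MMP2sh2 replicate 1 and MMP2sh2 replicate 3. LRRN4 (−0.15) became 0.37 without MMP2sh2 replicate 1 (lowest value −0.44). C3 (0.14) became −0.012 without MMP2sh1 replicate 3 (highest value 0.31). The cause was not tested. The order of control above MMP2sh2 above MMP2sh1 held for 265 called genes by medians (256 by means), and 243 windows lay within 0.1 of 0 under RLE scaling as under TMM. Changes of low-level genes rest on few reads, and depth limits their precision.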
